A study of Mus musculus with 15 samples.

Results

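The deubiquitinases that remove ubiquitin from histone H2A, some of them also from H2B, were followed in thalamic RNA from control and Maged1-cKO mice given repeated cocaine or saline. The genes were chosen by symbol, as enzymes known to act on ubiquitinated H2A or H2B: Usp7, Usp16, Usp21, Usp22, Usp3, Usp12, Usp46, Bap1 and Mysm1. All 9 were among the 25080 genes listed in each expression table, and all 9 were among the 13471 genes that passed the filter on low values and were tested. The rule uses no measured value, although it was set with earlier results of these data known.

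Monoubiquitinated H2A (H2Aub) is deposited by the Polycomb repressive complex PRC1, through its catalytic subunits Ring1 and Rnf2, and is associated with repressed genes. Deubiquitinases take the mark off again. The Usp enzymes and Bap1 are cysteine proteases, whereas Mysm1 is a zinc metalloprotease. Several work inside larger assemblies: Bap1 is the catalytic subunit of the PR-DUB complex together with an Asxl protein, Usp22 is the enzyme of the deubiquitinase module of the coactivator SAGA, and Usp12 and Usp46 are paralogs that depend on WD-repeat activators. Usp7 has many substrates besides histones, among them Mdm2 and Mdm4, the regulators of p53, and binds several proteins of the MAGE family, to which Maged1 belongs.

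RNA was extracted from dissected thalamus of male mice 2 to 4 months old, bred with C57Bl6J, and sequenced after removal of ribosomal RNA. Maged1-cKO mice carried a floxed Maged1, an X-linked gene, and Cre driven by the vGluT2 promoter, so that Maged1 is deleted in cells that have expressed this glutamatergic marker and kept in all others; the labels call the control mice Maged1 WT. All mice received saline for 3 days and then, for 5 days, either intraperitoneal cocaine at 20 mg/kg or saline. The groups held 4 control libraries each for saline and cocaine, and 4 saline and 2 cocaine libraries of cKO mice, described in the labels as independent samples, and 1 further cKO cocaine sample was not analysed here. The values are TPM (transcript abundances), which are corrected for length and set relative to each library, so that levels of different genes can be compared but depth is unknown. The listed genes summed to 312659 to 377401 TPM per library, only part of the total to which TPM are scaled.

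Some labels disagree. The genotype tag contradicts the title of 4 libraries from saline mice, and titles were followed. Maged1 itself, divided by the scaling factor of each library (scaled TPM), was at 149.7 to 166 in saline controls and at 64.5 to 77.98 in saline cKO mice, but at 58.5 to 87.9 in the libraries labelled control cocaine and at 152 and 174 in the 2 libraries labelled cKO cocaine. The genotype labels of the cocaine libraries therefore go against the level of the targeted gene, and every comparison below that uses them is a comparison of libraries so labelled. A comparison of all 6 cocaine with all 8 saline libraries uses no genotype label and is given beside the others. The markers of thalamic glutamatergic neurons summed to 780 to 1010 scaled TPM in every library. With cocaine 3 of these 8 markers were higher and 1 lower in control mice, and again 3 and 1 in cKO mice. Of all tested genes 24.3% and 19.9% were called in either direction. In control mice Calb2 fell by 0.68 on the log2 scale, and Lef1 and Rbfox3 rose by 0.55 and 0.43. In cKO mice Calb2 went the other way, from 44.9 to 104 scaled TPM with saline against 127 and 129 with cocaine. Lef1 (5.43 to 7.78 against 7.80 and 7.89) and Rbfox3 (23.1 to 27.8 against 29.1 and 29.8) were again higher with cocaine. Rora was lower there, at 58.2 to 74.0 with saline against 44.9 and 51.7 with cocaine. In control mice Rora was at 41.1 to 59.7 with saline against 53.5 to 71.6 with cocaine, with overlap. Hypothalamic markers, 7 genes such as Oxt and Avp, summed to 133 to 463 scaled TPM in saline and 2.57 to 127 in cocaine libraries of control mice, without overlap, and in cKO mice to 9.95 to 147 with saline against 34.0 and 74.2 with cocaine.

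The scaling between libraries matters for genes that change little. Trimmed-mean factors (TMM) were 0.807 to 0.947 in cocaine and 1.07 to 1.21 in saline libraries. Without scaling, the median log2 change of all tested genes with cocaine was −0.34 in control, −0.35 in cKO and −0.34 over all libraries, against 0.010, 0.001 and 0.006 after TMM. Of all tested genes in control mice, 2015 were called higher and 1260 lower with TMM, 1530 and 1542 with quantile normalization, and 112 and 9515 with TPM as deposited. Changes below are relative to TMM, and those that depend on it are named.

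Promoter sequences are shown for Mysm1 and Usp21, which passed the test below, and for Usp7. Each is the 250 bases before the RefSeq start site on GRCm38.p6, written 5′ to 3′ along the gene, in lower case with matches to the searched motifs in capitals. They lie at chr4:94979101-94979350 (minus strand) for Mysm1, chr1:171287962-171288211 (minus strand) for Usp21 and chr16:8738343-8738592 (minus strand) for Usp7.
Mysm1: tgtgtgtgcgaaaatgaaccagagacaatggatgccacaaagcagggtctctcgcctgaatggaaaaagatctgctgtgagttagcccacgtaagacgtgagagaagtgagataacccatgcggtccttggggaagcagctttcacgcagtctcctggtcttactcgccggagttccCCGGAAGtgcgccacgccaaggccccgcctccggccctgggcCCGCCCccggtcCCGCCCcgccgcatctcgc
Usp21: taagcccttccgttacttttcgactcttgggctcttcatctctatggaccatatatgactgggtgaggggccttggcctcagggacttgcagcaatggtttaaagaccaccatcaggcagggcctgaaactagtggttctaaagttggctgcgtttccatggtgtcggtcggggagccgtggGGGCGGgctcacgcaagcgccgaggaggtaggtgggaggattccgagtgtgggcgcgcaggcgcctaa
Usp7: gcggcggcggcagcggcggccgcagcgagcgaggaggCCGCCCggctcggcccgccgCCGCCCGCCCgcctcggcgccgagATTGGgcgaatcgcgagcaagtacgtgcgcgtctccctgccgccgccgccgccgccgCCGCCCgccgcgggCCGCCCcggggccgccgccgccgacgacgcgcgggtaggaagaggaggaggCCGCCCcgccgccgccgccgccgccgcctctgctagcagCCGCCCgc
The motifs searched on both strands were the GC box GGGCGG, the CCAAT box, the ETS motif CCGGAAG, the E box CACGTG, the TATA motif TATAAA and the cyclic AMP element TGACGTCA. Neighbouring GC boxes can overlap. Windows were given for 8 of the 9 genes. A GC box was found in 7 of these 8 windows, in all except that of Usp16, and in 32.7% of the 32851 promoters of the table. CCGGAAG stood in the windows of Mysm1 and Usp16 and in 6.91% of all promoters. CCAAT was in those of Usp7 and Usp3 (33.8% of all), CACGTG in those of Usp16 and Bap1 (6.02% of all), and the TATA motif and the cyclic AMP element in none. The 3 windows shown differ in base composition: 85.2% GC for Usp7, 61.2% for Mysm1 and 58.0% for Usp21, with a median of 52.4% over all promoters.

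The genes were expressed at levels that spanned 23.1-fold, with Usp22 at the top and Usp3 at the bottom. Averaged over the 14 libraries, Usp22 stood at 53.6 ± 1.99 scaled TPM (SD), 37.4% of the sum of the 9 genes and above 94.0% of tested genes. Bap1 followed at 23.1 ± 1.101 and Usp7 at 19.3 ± 0.776 scaled TPM. Each of these 3 was above the next gene in every library, with ranges that did not overlap.

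Lower in the order came Usp46 at 14.4 ± 1.19, Usp12 at 10.9 ± 0.943, Usp21 at 9.31 ± 0.794, Usp16 at 5.51 ± 0.377, Mysm1 at 4.98 ± 0.611 and Usp3 at 2.33 ± 0.254 scaled TPM. Here some neighbours could not be told apart by their ranges: Usp12 and Usp21 overlapped, with Usp12 higher in 12 of 14 libraries, and Usp16 and Mysm1 overlapped, with Usp16 higher in 10 of 14. The ranges of Usp46 and Usp12 also overlapped, although Usp46 was higher in all 14 libraries. The sum of the 9 genes hardly moved between groups, with 139.5 to 148 scaled TPM (saline) and 141 to 149.8 (cocaine) in control mice, and 144 to 148 (saline) against 136 and 144 (cocaine) in cKO mice.

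**Figure D1:**
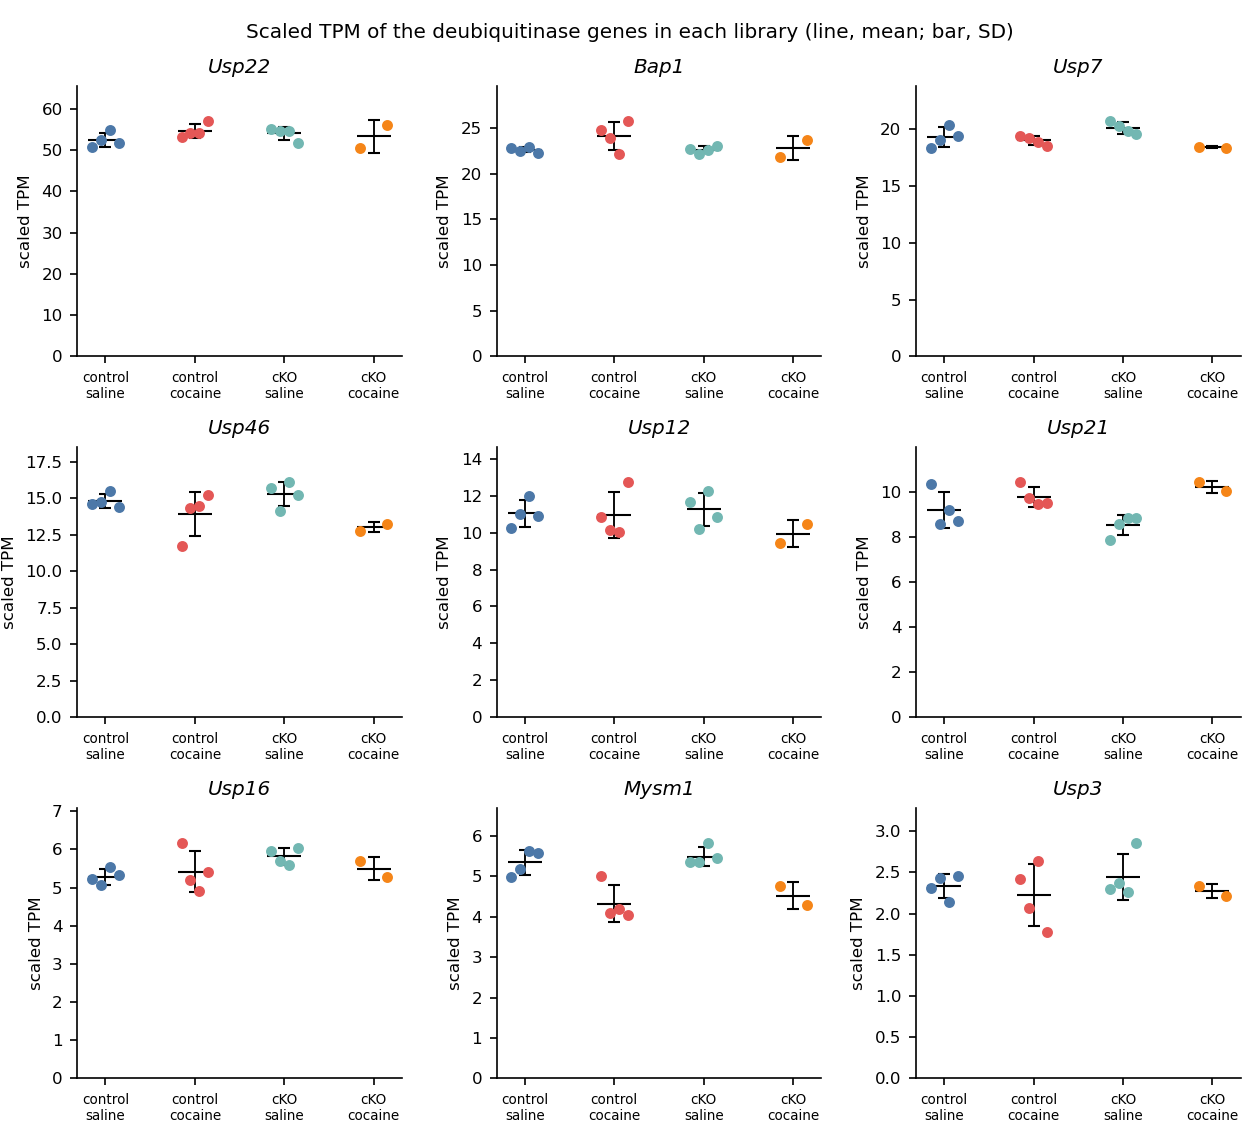
Scaled TPM (TPM divided by the TMM factor of the library, linear axis from 0) of each deubiquitinase gene in the 14 libraries, ordered by mean level; points are libraries, horizontal lines group means and bars SD. Mysm1 is lower in the cocaine groups, with 1 control cocaine library at 5.00 among the saline values and Usp21 is higher in the cKO cocaine than in the cKO saline libraries.

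Of the 9 genes, Mysm1 and Usp21 passed the test in 1 or more cocaine comparisons with TMM scaling. Mysm1 fell by 17.6% in control and by 16.3% in cKO libraries, and by 17.5% over all cocaine against all saline libraries. Usp21 rose by 18.8% in cKO libraries and by 11.5% over all libraries, and both calls were lost with GC and length trends removed. In control libraries Usp21 did not pass (limma adjusted p = 0.309). No other gene of the 9 passed the test (adjusted p under 0.05) in any cocaine comparison, and none changed by 0.5 or more on the log2 scale. Thus 1 of 9 genes passed in control mice, where 24.3% of all tested genes did, 2 of 9 in cKO mice, where 19.9% did, and 2 of 9 over all libraries, where 31.2% did. With the minimum of 0.5 the shares of all tested genes were 3.10%, 3.07% and 2.08%. The median log2 change of the 9 genes was −0.016 in control, −0.084 in cKO and −0.064 over all libraries.

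Mysm1, the metalloprotease of the set, is known for removing H2A ubiquitin at genes of blood cell development. In control saline libraries it was at 4.99, 5.19, 5.63 and 5.57 scaled TPM. In control cocaine libraries it was at 5.00, 4.08, 4.19 and 4.03. Cocaine replicates 2 to 4 lay below every saline value, and replicate 1 lay just above the lowest saline value. In cKO saline libraries it was at 5.35, 5.34, 5.82 and 5.45, and in the 2 cKO cocaine libraries at 4.75 and 4.29, below all 4. The log2 change was −0.28 ± 0.066 (SE; adjusted p = 0.00941) in control, −0.26 ± 0.081 (adjusted p = 0.0429) in cKO and −0.28 ± 0.049 (adjusted p = 0.000702) over all libraries. By exact two-sided permutation tests of the mean log2 value, p was 0.0571 for 4 against 4, where the smallest possible is 0.0286, 0.133 for 2 against 4, where it is 0.0667, and 0.00133 for 6 against 8. Over all libraries 5 of 6 cocaine values lay below the lowest saline value.

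The call in control mice held when any 1 library was left out, with log2 changes of −0.34 to −0.25. The call in cKO mice did not: it was lost on leaving out control cocaine replicate 3, control saline replicate 2, 3 or 4, either cKO cocaine library or any cKO saline library (−0.32 to −0.19, adjusted p = 0.0514 to 0.307). Mysm1 transcripts are poor in G and C (40.0%, lower than 94.0% of tested genes) and long (7420 bases for the longest, against a median of 3424). After trends on GC content and length were removed within each library, the log2 change of Mysm1 was −0.18 (adjusted p = 0.0431) in control, −0.06 (adjusted p = 0.656) in cKO and −0.13 (adjusted p = 0.0451) over all libraries. The hypothalamic markers that fell with cocaine in control libraries ranged, in cKO libraries, from 9.95 to 147 scaled TPM with saline against 34.0 and 74.2 with cocaine, and their part in the control result was not tested. Oligodendrocyte markers also moved in control mice: 2 of 5 passed, beside 24.3% of all tested genes, both higher with cocaine (Mobp by 0.61 and Mbp by 0.46 on the log2 scale). The 5 genes summed to 1296 to 1548 scaled TPM with saline against 1447 to 2271 with cocaine, with overlap. In cKO mice 0 of 5 passed with limma. There 2 of 5 had an unadjusted p under 0.05, both lower, beside 4545 of 13471 tested genes in either direction. The sums were 1606 to 2275 with saline against 1746 and 1765 with cocaine. The 7 markers of ependyma and motile cilia were all lower with cocaine in control mice (median log2 change −0.63). In cKO mice all 7 were higher (0.98), with 0 and 1 past the test. The 5 habenula markers were likewise all lower in control (−0.38) and all higher in cKO mice (0.70), with 0 past the test in either. The part of these markers in the changes of Mysm1 was not tested.

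Usp21, an H2A deubiquitinase linked to the start of transcription, was higher with cocaine in cKO libraries. It was at 7.87, 8.58, 8.83 and 8.82 scaled TPM with saline and at 10.4 and 10.01 with cocaine, without overlap. In control saline libraries it was at 10.3, 8.56, 9.17 and 8.70, and in control cocaine at 10.4, 9.71, 9.47 and 9.48. There the saline replicate 1 was as high as the cocaine libraries. The log2 change was 0.25 ± 0.072 (SE; adjusted p = 0.0302) in cKO, 0.09 ± 0.059 (adjusted p = 0.309) in control and 0.16 ± 0.048 (adjusted p = 0.0221) over all libraries. The exact permutation p was 0.133 for the cKO libraries, 0.229 for control and 0.00733 over all, with 6 of 6 cocaine values above the saline median.

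Usp21 is the gene of the set with the highest GC content (57.8%, above 89.2% of tested genes), and with trends on GC content and length removed its change was 0.10 (adjusted p = 0.453) in cKO and 0.04 (adjusted p = 0.643) over all libraries. It turned to −0.12 in cKO and −0.21 over all libraries with TPM as deposited. In cKO mice the call was also lost without cKO cocaine replicate 1 or 2 or cKO saline replicate 1 (0.21 to 0.28, adjusted p = 0.0695 to 0.149), and over all libraries it held without any 1 of them.

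Usp7, the enzyme that binds MAGE proteins, ranged from 18.3 to 20.7 scaled TPM over all libraries. It was at 18.3, 19.1, 20.4 and 19.4 scaled TPM in control saline and at 19.4, 19.2, 18.9 and 18.5 in control cocaine. The control cocaine values all lay inside the range of the control saline values. In cKO saline it was at 20.7, 20.3, 19.9 and 19.6, and in cKO cocaine at 18.5 and 18.4. Both cKO cocaine values lay below all cKO saline values but above the lowest control saline value. The log2 change was −0.02 (95% confidence interval −0.10 to 0.06; adjusted p = 0.725) in control, −0.12 (−0.22 to −0.03; adjusted p = 0.0703) in cKO and −0.06 (−0.13 to 0.001; adjusted p = 0.124) over all libraries. Exact permutation p-values were 0.657, 0.133 and 0.0306, and over all libraries 6 of 6 cocaine values lay below the saline median. On leaving out control saline replicate 1, Usp7 passed the test in cKO (−0.13, adjusted p = 0.0385) and over all libraries (−0.09, adjusted p = 0.0226).

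Usp46 and Usp12 are paralogs activated by the WD-repeat proteins Wdr48 and Wdr20, and both are brain-expressed. Usp46 was at 14.6, 14.7, 15.5 and 14.4 scaled TPM in control saline and at 11.7, 14.3, 14.5 and 15.2 in control cocaine. Control cocaine replicate 1 stood low and the other 3 lay within the saline values or close to them. In cKO it was at 15.7, 14.1, 16.1 and 15.2 with saline and at 12.8 and 13.2 with cocaine, without overlap. The log2 change was −0.09 ± 0.068 (SE; adjusted p = 0.362) in control, −0.22 ± 0.084 (adjusted p = 0.0790) in cKO and −0.14 ± 0.052 (adjusted p = 0.0509) over all libraries, with an exact permutation p of 0.0220 for the last. It stood at the edge of the threshold over all libraries, and passed without control cocaine replicate 2, 3 or 4, control saline replicate 1 or cKO saline replicate 2 (−0.17 to −0.15, adjusted p = 0.0202 to 0.0490). In cKO it passed in 3 of 27 alternatives. These were without control cocaine replicate 1 (−0.22, adjusted p = 0.0138), a library of neither group compared, with the compared groups alone, and with TPM as deposited. Antisense genes (Usp46os1 and Usp46os2) overlap Usp46. The study's methods name a directional library preparation, and whether the counting used strand is not given in the sources used here.

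Usp12 ranged in control mice from 10.3 to 11.999 scaled TPM with saline and from 10.03 to 12.7 with cocaine. In cKO mice it ranged from 10.2 to 12.3 with saline and was at 9.42 and 10.5 with cocaine. The saline and cocaine groups overlapped, with log2 changes of −0.02 (95% confidence interval −0.19 to 0.15) in control, −0.17 (−0.38 to 0.04) in cKO and −0.07 (−0.20 to 0.06) over all libraries. Of the 31-base words in its transcripts, 4.98% also occur in transcripts of other genes, mostly Gm8902, so part of its reads may be divided. Usp12 and Usp46 share none of these words with each other.

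Bap1, the catalytic subunit of PR-DUB, was the second most expressed gene of the set. It was at 22.8, 22.5, 22.9 and 22.3 scaled TPM in control saline and at 24.8, 23.9, 22.2 and 25.7 in control cocaine. Cocaine replicates 1, 2 and 4 lay above every saline value and replicate 3 below all of them. In cKO libraries it was at 22.2 to 23.1 with saline and at 21.9 and 23.7 with cocaine, on either side of the saline range. The log2 change was 0.09 ± 0.044 (SE; adjusted p = 0.152) in control, 0.009 ± 0.054 (adjusted p = 0.923) in cKO and 0.06 ± 0.035 (adjusted p = 0.181) over all libraries. Without control cocaine replicate 3 Bap1 passed in control mice (0.13, adjusted p = 0.0344). The SD was 0.274 in control saline against 1.52 in control cocaine libraries.

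Usp22, whose module in SAGA acts on H2B and H2A, ranged in control mice from 50.7 to 54.9 scaled TPM with saline and from 53.1 to 56.97 with cocaine. In cKO mice it ranged from 51.7 to 55.1 with saline and was at 50.5 and 56.1 with cocaine. Its log2 change was 0.06 (95% confidence interval −0.03 to 0.15) in control, −0.02 (−0.13 to 0.09) in cKO and 0.03 (−0.04 to 0.09) over all libraries.

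Usp16, which removes H2A ubiquitin during mitosis, ranged in control mice from 5.06 to 5.54 scaled TPM with saline and from 4.90 to 6.16 with cocaine. In cKO mice it ranged from 5.59 to 6.04 with saline and was at 5.28 and 5.71 with cocaine. The log2 change with cocaine was 0.03 (95% confidence interval −0.10 to 0.16) in control, −0.08 (−0.24 to 0.09) in cKO and −0.03 over all libraries. Its transcripts have the lowest GC content of the set (38.2%, below all but 2.503% of tested genes), and over all libraries its change was 0.16 (adjusted p = 0.0157) once GC and length trends were removed. Usp3, an enzyme for H2A and H2B ubiquitin in the DNA damage response, was the lowest gene at 1.77 to 2.85 scaled TPM over all libraries. Its log2 change was −0.07 (−0.28 to 0.15) in control, −0.08 (−0.35 to 0.18) in cKO and −0.08 (−0.23 to 0.07) over all libraries, the widest intervals of the 9 genes.

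**Figure D2:**
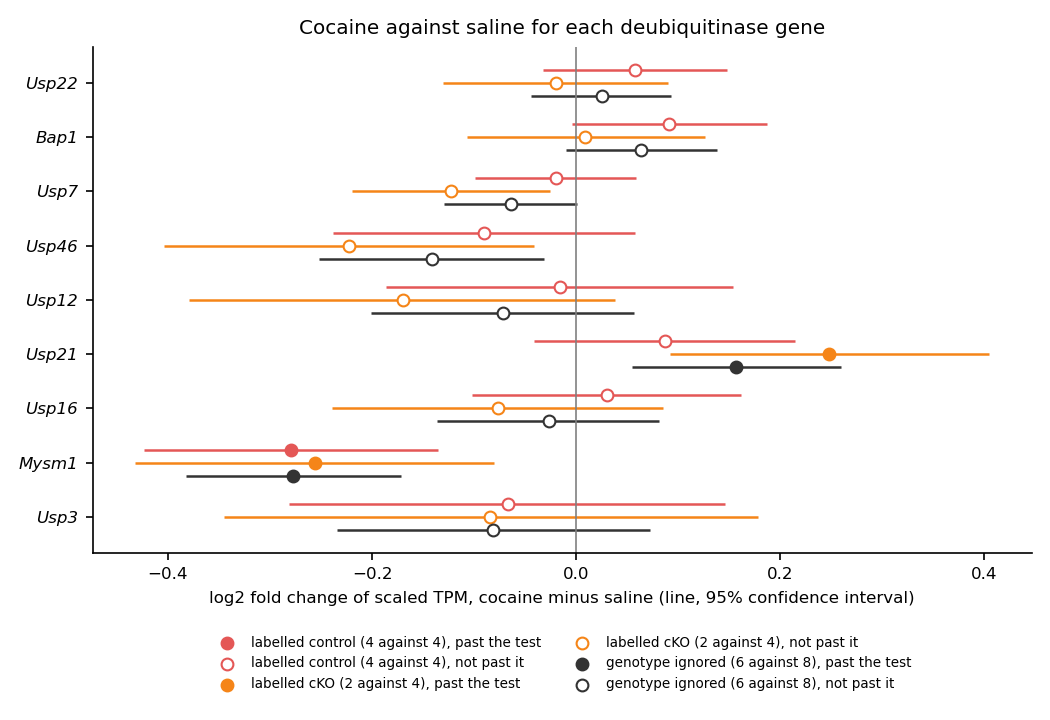
Log2 fold change of scaled TPM, cocaine minus saline, with 95% confidence intervals, for each deubiquitinase gene in libraries labelled control (4 against 4), in libraries labelled cKO (2 against 4) and with genotype ignored (6 against 8); filled points passed an adjusted p of 0.05. Mysm1 lies left of 0 in all 3 comparisons (−0.28, −0.26 and −0.28) and Usp21 right of it, filled in cKO (0.25) and over all libraries (0.16).

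The scaling decided how many of the 9 genes were called. With TPM as deposited all 9 were called lower in control mice and over all libraries, and 8 in cKO mice, against a median of all genes that was itself near −0.34. Mysm1 then stood at −0.63 over all libraries, below that median, and Usp21 at −0.21, above it. Median-of-ratios scaling gave nearly the TMM values, with Mysm1 at −0.29 and Usp21 at 0.15. Quantile normalization added Usp7 (−0.10, adjusted p = 0.0189) and Usp46 to the 2 genes called over all libraries.

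**Figure D3:**
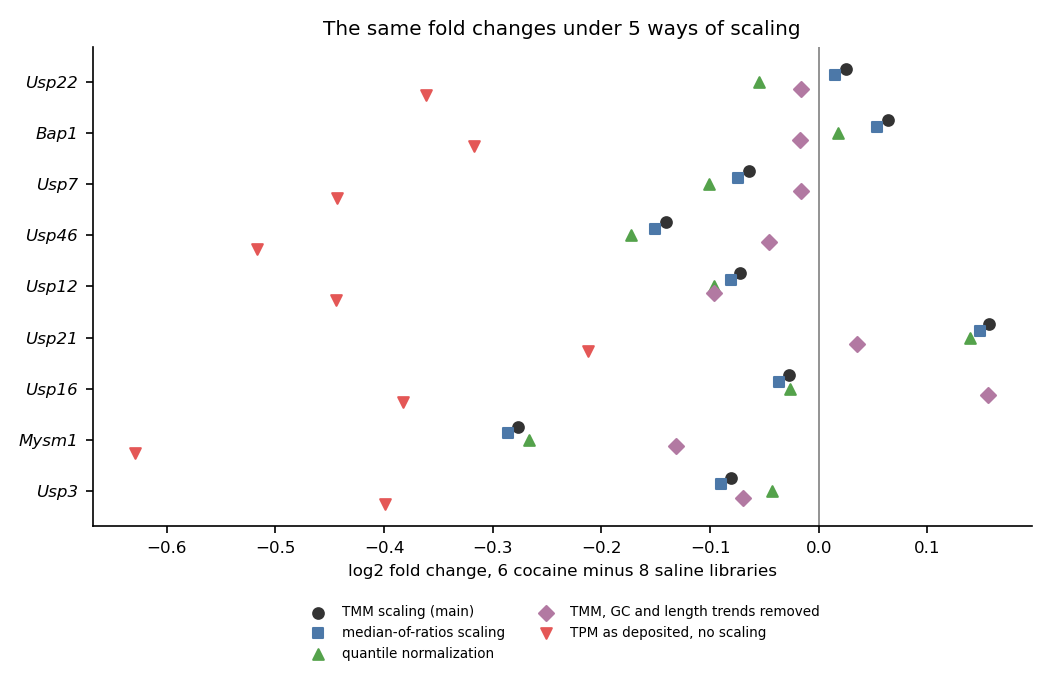
Log2 fold change of the 6 cocaine against the 8 saline libraries for each deubiquitinase gene under TMM, median-of-ratios and quantile scaling, under TMM with trends on GC content and length removed, and with TPM as deposited. Mysm1 lies left of 0 under all 5 (−0.63 to −0.13), Usp21 ranges from −0.21 to 0.16, and with TPM as deposited every gene is left of 0.

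Between genotypes, none of the 9 genes passed the test. After saline 0 of 9 passed at the adjusted threshold, where 0.156% of all tested genes were called. With limma 0 of 9 had an unadjusted p under 0.05, where 2255 of 13471 tested genes did. After cocaine, between libraries labelled cKO and control, 0 of 9 passed, where 0.0594% of tested genes were called. Here 0 of 9 had an unadjusted limma p under 0.05, where 1635 of 13471 tested genes did. The difference between the cocaine changes of libraries labelled cKO and control (interaction) passed for 0 of 9 genes and for 1.35% of tested genes. Its unadjusted limma p was under 0.05 for 0 of 9 genes and for 2488 of 13471 tested genes. After saline the log2 differences, cKO minus control, ran from −0.10 for Usp21 to 0.13 for Usp16. Usp16 was higher in all 4 cKO saline libraries than in any control saline library, as were 7.02% of tested genes, with an exact permutation p of 0.0286, the smallest this design can give, and a limma adjusted p of 0.312. Usp7 differed by 0.06 (95% confidence interval −0.02 to 0.14) after saline.

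After cocaine, both libraries labelled cKO lay below the 4 labelled control for Usp7, as did 10.6% of tested genes, at a log2 difference of −0.05 ± 0.045 (SE). The interaction was largest for Usp21 (0.16 ± 0.094, adjusted p = 0.382), then Usp12 (−0.15 ± 0.124) and Usp46 (−0.13 ± 0.108). For Mysm1 it was 0.02 ± 0.105 (adjusted p = 0.933). By these labels the fall of Mysm1 in control and its call in cKO libraries were not shown to differ, nor were those of Usp21. If the level of Maged1 marks the genotype, the interaction contrast sets genotypes against each other and not cocaine changes. The design cannot tell these readings apart. In cKO cocaine against cKO saline, 3 genes lay without overlap below saline (Usp7, Usp46 and Mysm1) and 1 above (Usp21), beside 22.2% and 21.1% of all tested genes. In control mice 0 of 9 genes lay apart, beside 10.3% of tested genes below and 14.9% above.

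The proteins that work with these enzymes were examined through lists fixed by function, although chosen with earlier results of these data known. The counts below stand beside 31.2% of all tested genes called over all libraries, 24.3% in control and 19.9% in cKO mice. Over all cocaine against all saline libraries, 2 of 7 tested genes of the SAGA module around Usp22 passed, both lower: Eny2 (−0.17) and Atxn7l3b (−0.19). Of the 10 partners of Bap1 in PR-DUB, 3 were higher and 1 lower. Hcfc1, a host cell factor that binds Bap1, rose by 0.27 on the log2 scale, and the O-GlcNAc transferase Ogt fell by 0.24. The forkhead factor Foxk2 rose by 0.18, and Mbd6, a methyl-CpG binding domain protein, was at 1.40 ± 0.315 (SE). The calls of Eny2 and Foxk2 were lost with GC and length trends removed. For the WD-repeat activators and Usp1, 0 of 3 tested genes passed with limma. An unadjusted p under 0.05 was found for 0 of these 3 and for 5572 of all 13471 tested genes.

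Mbd6 rested on low values. It was listed at 0.637, 1.17, 1.43 and 0 scaled TPM in control mice with saline and at 1.19, 1.501, 1.48 and 4.08 with cocaine. In cKO mice it was at 0.308, 0.243, 0.248 and 0.866 with saline and at 3.36 and 2.66 with cocaine. Control cocaine replicates 1 to 3 lay close to the higher control saline values, and both cKO cocaine libraries lay above all cKO saline libraries.

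Among the 11 tested partners and substrates of Usp7, 2 were higher and 2 lower over all libraries, where 31.2% of tested genes were called. Gmps, a guanine nucleotide synthesis enzyme that binds Usp7 and stimulates it on histones, was at 20.2, 20.8, 20.8 and 20.2 scaled TPM in control saline and at 15.8, 14.998, 15.2 and 15.9 in control cocaine. It was at 21.005, 18.2, 21.5 and 19.1 in saline and at 16.9998 and 15.03 in cocaine libraries of cKO mice, so that cocaine and saline libraries did not overlap in either genotype. Gmps fell by 0.36 (adjusted p = 2.04e-05), and Mdm4, a p53 inhibitor that Usp7 stabilizes, fell by 0.33 (adjusted p = 1.07e-05), both on the log2 scale. With GC and length trends removed they stood at −0.19 (Gmps) and −0.25 (Mdm4) and were still called. Daxx, a histone chaperone, rose by 0.20 and Trp53 by 0.15, and both calls were lost with GC and length trends removed.

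The ligase side moved in both directions. Of the 12 PRC1 subunits, 2 were higher and 4 lower over all libraries (31.2% of tested genes called). Pcgf5 (−0.33) and Bmi1 (−0.25), alternative partners of the catalytic subunits, and Rnf2 itself (−0.16) fell, and Bcorl1 (0.33), a subunit of a variant PRC1, rose. Ring1, the other catalytic subunit, named after its values were seen, rose by 0.23 (adjusted p = 0.00968) over all libraries and by 0.43 (adjusted p = 0.00165) in cKO mice, and was at 0.09 (adjusted p = 0.281) in control. The calls of Bmi1, Rnf2 and Ring1 over all libraries were lost with GC and length trends removed. In control mice 1 subunit was higher and 2 were lower (24.3% of tested genes called), in cKO mice 1 and 4 (19.9%). Of the 10 genes of H2B ubiquitination 5 were higher and 2 lower, again beside 31.2% of tested genes: Leo1 (0.47) and Rtf1 (0.24) of the Paf1 complex and the ligase Rnf40 (0.25) rose, and Cdc73 of the same complex (−0.31) fell, a call lost with GC and length trends removed. Of 5 tested other histone deubiquitinases Usp36 rose by 0.10 and Usp48 fell by 0.12. The call of Usp36 was lost with median-of-ratios and quantile scaling and with GC and length trends removed (−0.012), and its sign also turned with TPM as deposited (−0.27).

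The median log2 change over all libraries was 0.036 for the PRC1 list, 0.142 for the H2B list, 0.035 for SAGA, 0.055 for PR-DUB and −0.003 for the Usp7 list, against 0.006 for all tested genes. Of the 25 calls in these lists over all libraries (13 higher, 12 lower), 24 were kept in direction and call with median-of-ratios and with quantile scaling and 14 with GC and length trends removed. With TPM as deposited 11 of the 13 rises turned negative and 0 of the 12 falls turned positive. Among the genes named above, the calls of Foxk2, Hcfc1, Trp53, Daxx, Usp36, Ring1, Bcorl1, Rnf40, Leo1 and Rtf1 over all libraries were then lost. The remaining Usp genes, 37 of 43 tested, gave 6 higher and 7 lower over all libraries, 5 and 4 in control and 3 and 9 in cKO mice, beside 31.2%, 24.3% and 19.9% of all tested genes called in either direction.

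**Figure D4:**
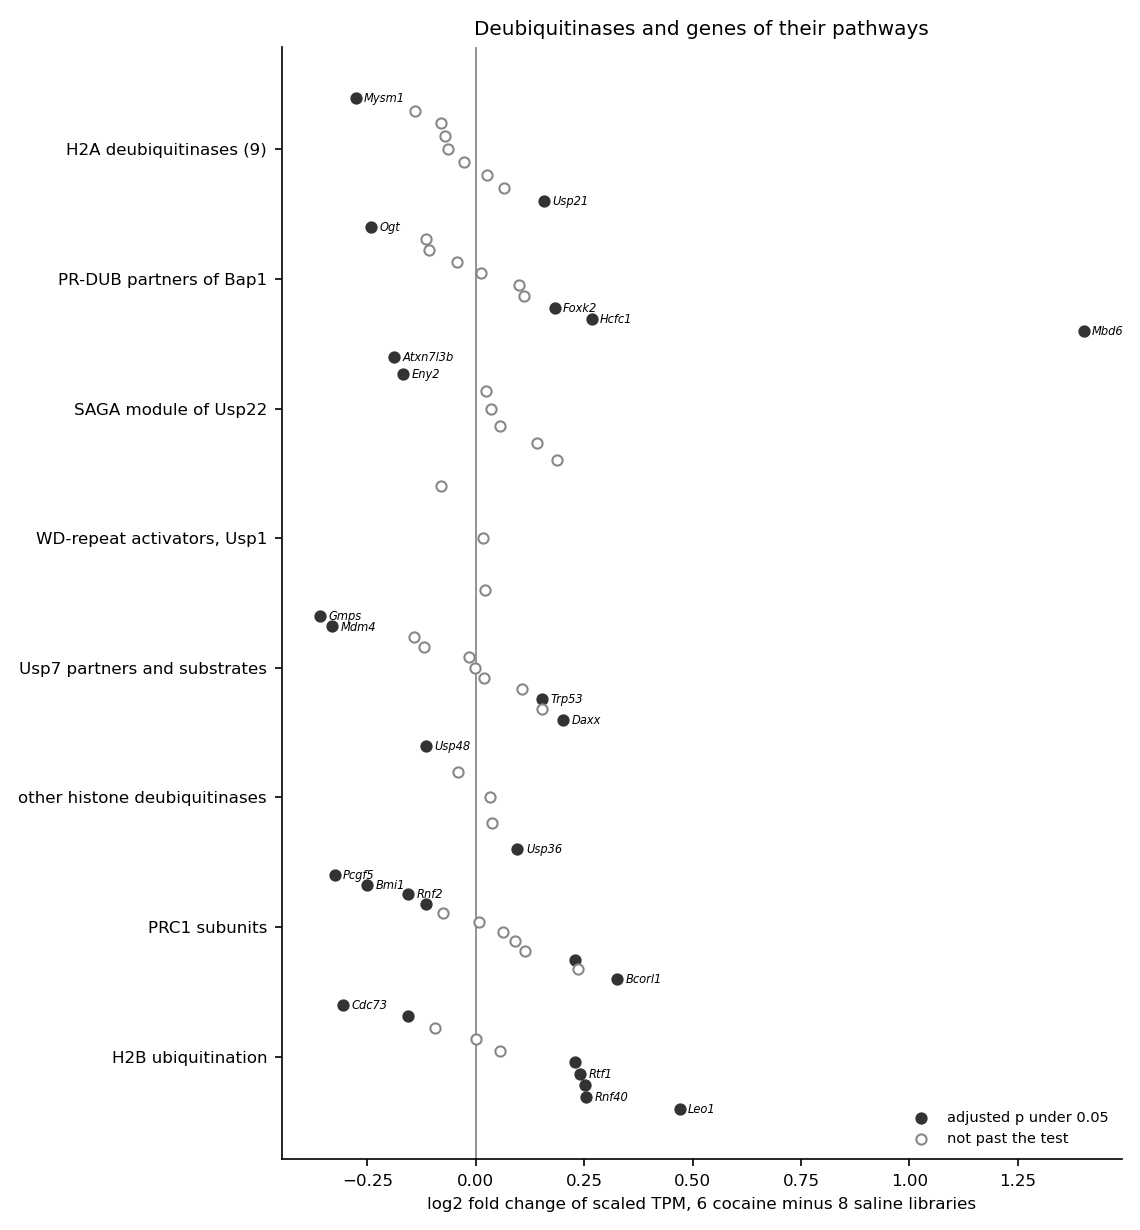
Log2 fold change of scaled TPM in 6 cocaine against 8 saline libraries for the deubiquitinase genes and the genes of 7 related lists, each point a tested gene; filled points passed an adjusted p of 0.05, and up to 4 per list with the smallest adjusted p are named. Most lists hold genes on either side of 0, with Mbd6 at 1.40 farthest to the right.

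Within groups, the 9 genes did not vary as a block. The correlation of their deviations from the group means over the 14 libraries, taken for 36 pairs as a description, had a median of 0.072, with 20 pairs above 0. It was highest for Usp16 with Mysm1 (0.68) and Usp12 with Bap1 (0.68) and lowest for Usp22 with Usp3 (−0.66). All genes of a library share its scaling factor and its base composition bias. By the same measure the 5 tested genes most like Usp7 were 2900093K20Rik (0.85), Nup37 (0.85), Rnf115 (0.84), Hdac10 (0.84) and Zfp422 (0.83). Those most like Bap1 were Ccdc85a (0.93), Src (0.91), Nr4a1 (0.91), Igf1 (0.90) and Selenoo (0.90), picked as the highest of 13471 genes.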

How the data were processed

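Thalamic RNA-seq was analysed in 14 of 15 samples, and 1 sample (cKO cocaine) was not analysed here. According to the study's methods, reads were mapped to GRCm38.p4 with STAR 2.5.3a (named in the submitters' processing notes), salmon gave transcript abundances and tximport gene values. The deposited files are TPM, with 1 table for each library. In 2 deposited tables the numbers (unit given as other, since they carry a decimal comma) are TPM as well, and the comma was read as a point. TPM keep no depth, so counting error is unknown.

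TPM were divided by unweighted TMM factors (30% of log ratios and 5% of mean values trimmed at each end), 0.5 was added and log2 taken, which makes changes of low genes smaller. The 13471 genes that reached 1 TPM in 3 or more libraries were tested with limma 3.58.1 (R 4.3.3) with an intensity trend: a means model of the 4 groups by title, and a 2-group fit of cocaine against saline. A gene passed at a Benjamini-Hochberg adjusted p under 0.05 over all tested genes. The limma p-values set each difference against the spread between these samples. In the means model this spread was pooled over all 4 groups and drawn toward the intensity trend, so that a call in cKO mice can depend on control libraries. Single genes were also compared by exact two-sided permutation tests (scipy 1.17.1, Python 3.11.15). Percent changes are those of log2 values. Tested on simulated data, 188 of 200 genes doubled in control cocaine among 13323 were called, with 6 other calls.

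The genes and lists were chosen with earlier results of these data known. All 9 deubiquitinases are named throughout, up to 4 called genes per other list and comparison, and the 5 genes most like Usp7 and Bap1. GC content, length and shared words came from GENCODE M21 (GRCm38), and promoters from RefSeq (GRCm38.p6). Other settings tried were no scaling, median-of-ratios or quantile scaling, a pseudocount of 0.1 or 1, every gene or those with a mean of at least 5 TPM, a fit without the intensity trend, a replicate block, quadratic GC and length trends taken out, genotype by tag, agreeing labels alone, the compared groups alone, the mean of the 2 cocaine contrasts, and each library left out.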

Additional observations from a re-analysis of the deposited data

Results flagged for a closer look

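Among 27 groups of 4 libraries tested over the 9 genes, a single library stood apart in 2, where chance gives about 1 in 20 groups. Mysm1 in control cocaine replicate 1 was the highest of its group at 5.00 scaled TPM, against 4.03 to 4.19 in the other 3, and so lay among the saline values. Usp22 in cKO saline replicate 4 was the lowest of its group at 51.7 scaled TPM, against 54.5 to 55.1 in the other 3.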

How the results depend on the processing

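With TPM as deposited the number of deubiquitinase genes past the test rose to 9 in control, 8 in cKO and 9 over all libraries, and signs turned: in control Usp16 to −0.32, Usp21 to −0.28, Usp22 to −0.32 and Bap1 to −0.28, in cKO Usp21 to −0.12 and Bap1 to −0.37, and over all libraries Usp21 to −0.21, Usp22 to −0.36 and Bap1 to −0.32. A minimum of 0.5 on the log2 scale left 0 genes in each cocaine comparison. With GC and length trends removed 2 genes passed in control (Usp16 and Mysm1), 0 in cKO, and over all libraries Mysm1 and Usp16, the latter turned from −0.03 to 0.16. Quantile normalization gave 4 over all libraries. In cKO, 1 gene passed with no filter (Usp21), with a mean of at least 5 TPM (Usp21) and with genotype by the tag (Mysm1). Where labels agree, 0 genes passed in control (2 saline libraries) and 0 in cKO (2 against 2); the causes were not tested. Leaving out 1 library gave 1 to 2 genes in control, 0 to 3 in cKO and 2 to 4 over all libraries (4 without control saline replicate 1). The replicate numbers did not pair the samples: deviations of same-numbered libraries correlated at −0.014 on average over 18 pairs, and of others at 0.005 over 54. With a replicate block 0 genes passed in cKO, and the count in the other comparisons stayed within 1.5 times. Between genotypes and for the interaction, 0 genes passed under each alternative. Mysm1 passed in 25 of 25 alternatives over all libraries, 26 of 27 in control and 12 of 27 in cKO. Usp3 falls below the mean of 5 TPM. Depth is unknown, which limits low genes most.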
